A study of Mus musculus with 8 samples.

Results

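The death ligands and their receptors were followed as 10 genes of the 55536 with an identifier in the count table, each taken by its symbol in the deposited normalized table and joined to the counts by Ensembl identifier. They are 5 ligand genes (Tnfsf10, which encodes TRAIL, Fasl, Tnf, Lta and Ltb) and 5 receptor genes (Tnfrsf10b, Fas, Tnfrsf1a, Tnfrsf1b and Ltbr). RNA was sequenced from 8 tumors grown from HCA-1 cells, a mouse hepatocellular carcinoma (HCC) line, implanted orthotopically in the liver of male C3H mice, whose age the labels give as 6 to 8 weeks. On day 17 the 4 mice of the group labelled IMQNP received one i.v. dose of PFSUV-IMQ at 4 mg per kg, that is, the TLR7 agonist imiquimod carried by phospholipid-free vesicles, and the 4 mice of the group labelled Control received saline. Tumors were taken 3 h later, 1 from each mouse, and their labels number them 1, 2, 3 and 4 for IMQNP and 1, 3, 4 and 5 for Control. All 8 mice carried the same tumor line and had no other treatment named, no group received empty vesicles or free imiquimod, and the single line and single time limit what the comparison can stand for. The comparison asks how the genes that start or carry death receptor signals in the tumor differed shortly after the particle.

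As background, ligands of the tumor necrosis factor superfamily are made mostly by immune cells, in most cases as membrane proteins, and bind as trimers. TRAIL and Fas ligand bind receptors with an intracellular death domain, which recruits Fadd and caspase-8 and can start apoptosis, whereas TNF at its death domain receptor mainly starts NF-kappaB signaling and starts cell death when that arm fails. Lymphotoxin alpha binds the TNF receptors, and together with lymphotoxin beta it binds Ltbr, which acts through the non-canonical NF-kappaB pathway in lymphoid tissue. Interferons are known to raise TRAIL in many immune cells.

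All 10 genes had enough counts to be tested. Values are normalized CPM, that is, counts scaled to a common library size adjusted by edgeR's TMM method. A gene counts as called when its adjusted p was under 0.05 and its log2 fold change was over 1 or under -1 (quasi-likelihood test of edgeR, with p adjusted by the Benjamini-Hochberg method over all 15998 tested genes). Total counts per tumor ranged from 16883911 to 27687756 after saline and from 17008151 to 18527613 after PFSUV-IMQ, and 3 counts corresponded to 0.108 to 0.178 CPM, a floor that covers counting error only. Tumors of a group correlated at 0.912 to 0.984 across genes. PFSUV-IMQ replicate 2 stood apart, with the highest value of its group for 320 of the 362 genes called higher. The labelled tissue was checked against markers. Spp1, which is high in many liver tumors, ranged from 1865 to 7817 CPM after saline and from 2946 to 6774 CPM after PFSUV-IMQ. It was lowest in saline replicate 4 (1865 CPM) and PFSUV-IMQ replicate 2 (2946 CPM), and at 5752 to 7817 CPM in all other tumors. Afp and Gpc3, fetal genes of many HCCs, had means of only 5.46 and 1.23 CPM in the saline group and 4.79 and 1.57 CPM in the PFSUV-IMQ group, and Igf2 and Dlk1 had at most 3 counts in any tumor. Summed over 10 hepatocyte markers, the level ranged from 4551 to 35960 CPM after saline and from 6605 to 37721 CPM after PFSUV-IMQ. The most was in saline replicate 4 and PFSUV-IMQ replicate 2, the tumors with the least Spp1 of their groups. The share of liver tissue in these tumors was not tested. In these bulk samples, fewer cells of a type and less RNA per cell cannot be told apart.

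A few promoter windows are shown because they belong to the called ligand gene, to the receptor gene with the largest fold change and to the receptor gene whose window holds the interferon element searched for. Each is the 250 bases before the gene's RefSeq start in build GRCm38.p6, read 5′ to 3′ on the gene's own strand, with the matched motifs in capitals. The windows are Tnfsf10 at chr3:27316827-27317076 (plus strand), Fas at chr19:34290409-34290658 (plus strand) and Tnfrsf1b at chr4:145246871-145247120 (minus strand).
Tnfsf10: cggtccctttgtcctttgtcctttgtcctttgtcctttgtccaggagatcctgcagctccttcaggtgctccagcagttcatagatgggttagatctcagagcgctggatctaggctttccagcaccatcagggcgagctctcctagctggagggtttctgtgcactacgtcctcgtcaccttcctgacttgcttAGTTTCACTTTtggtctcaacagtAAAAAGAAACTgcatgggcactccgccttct
Fas: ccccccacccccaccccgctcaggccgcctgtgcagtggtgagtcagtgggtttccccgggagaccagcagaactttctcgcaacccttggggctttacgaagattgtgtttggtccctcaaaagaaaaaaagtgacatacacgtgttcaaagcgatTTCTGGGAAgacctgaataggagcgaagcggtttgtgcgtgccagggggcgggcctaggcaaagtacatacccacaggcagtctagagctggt
Tnfrsf1b: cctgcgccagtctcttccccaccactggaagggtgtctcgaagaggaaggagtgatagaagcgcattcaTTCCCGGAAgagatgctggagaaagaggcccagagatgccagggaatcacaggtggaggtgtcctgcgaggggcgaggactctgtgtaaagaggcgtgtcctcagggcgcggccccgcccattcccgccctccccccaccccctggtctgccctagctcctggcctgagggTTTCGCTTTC

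The motifs were searched on both strands. They were the core of the interferon-stimulated response element (ISRE), GAAANNGAAA, the STAT dimer site GAS, TTCNNNGAA, and a kappaB site, GGGANNNNCC, which 2.98%, 7.02% and 17.6% of 32851 mouse promoter windows of the same length hold. An ISRE-like form, AGTTTCNNTTT, which can overlap the ISRE core, was added after the Tnfsf10 window had been read. Of the windows, 0.551% hold it, a share that cannot measure how unusual the Tnfsf10 matches are, because that window was read first. Of the 10 genes, 9 had a window, all except Tnfrsf10b. The Tnfsf10 window holds the ISRE-like form in both orientations, AGTTTCACTTT at 55 to 45 bases before the start and AAAAAGAAACT at 31 to 21 bases, and none of the other 3 motifs. The gene annotation used for the counts starts Tnfsf10 earlier, at 27317028, so that the first match spans that start and the second lies inside the gene. By that annotation the Tnfrsf1a window lies inside its gene and the Ltb window runs into its gene. The Fas window holds 1 GAS match, TTCTGGGAA, at 93 to 85 bases before the start. The Tnfrsf1b window holds the only ISRE core among the 9, TTTCGCTTTC in the last 10 bases before the start, and a GAS match. Lta has 2 GAS matches, Tnfrsf1a and Ltb have 1 each, Ltb also has a kappaB match, and the letters searched for are not in the windows of Tnf, Fasl and Ltbr. A match describes the sequence and shows no binding.

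Tnfsf10 was the gene of the 10 that passed the test. It rose 9.19-fold, a log2 fold change of 3.20 (standard error, SE, 0.62, adjusted p = 0.0267), from 13.7 ± 8.56 CPM after saline to 127 ± 96.4 CPM after PFSUV-IMQ (SD, n = 4 each). No other ligand gene and no receptor gene was called, so the count was 1 of 5 ligands and 0 of 5 receptors higher and 0 of 10 lower, where 2.26% of all tested genes were called higher and 0.200% lower. At an unadjusted p under 0.05, 1 ligand gene and 2 receptor genes were higher, where 8.34% of tested genes were, and none of the 10 was lower, where 4.65% were. All 5 ligand genes and 4 of the 5 receptor genes had a positive log2 fold change, with a median of 0.32 over the ligands, 0.42 over the receptors and -0.03 over all tested genes.

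**Figure D1:**
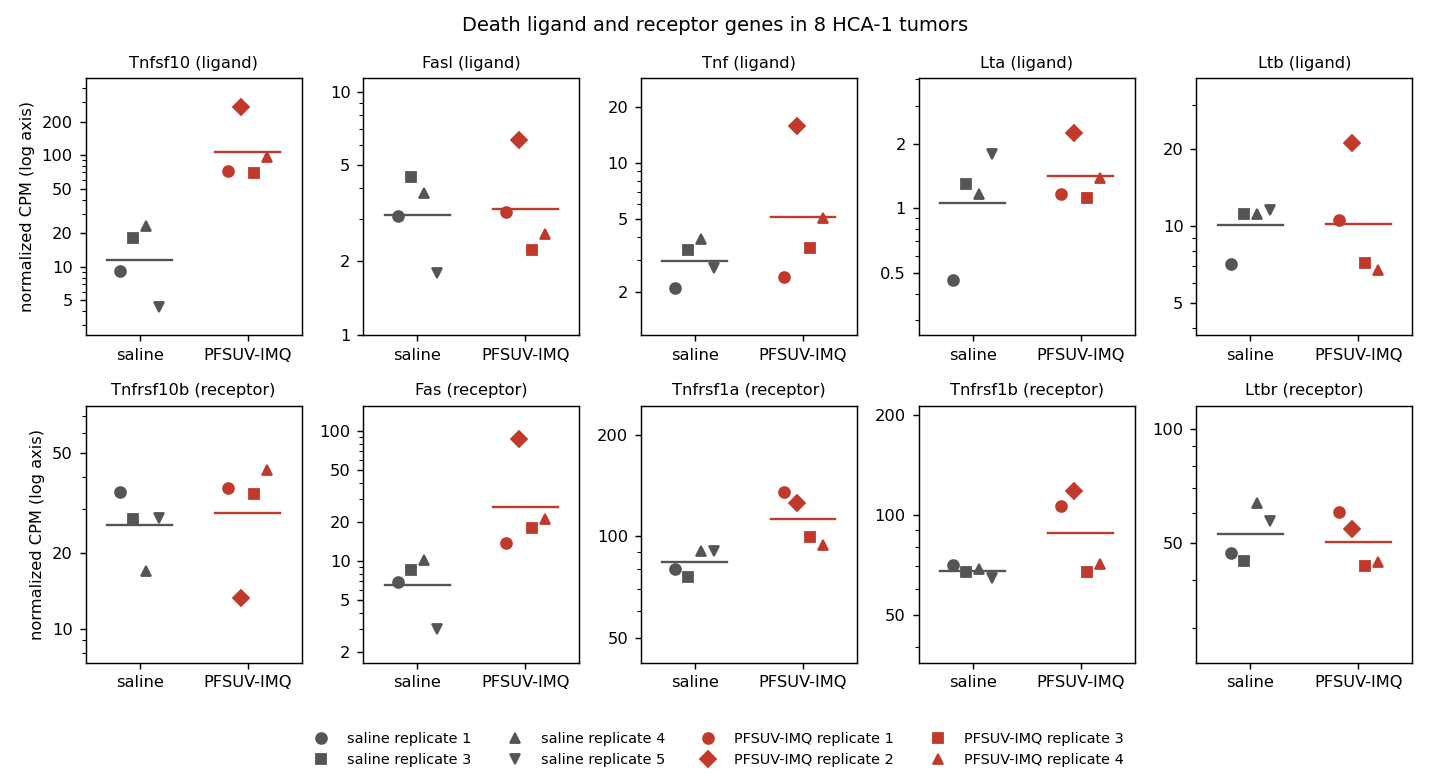
Normalized CPM of the 5 ligand genes (top) and 5 receptor genes (bottom) in 4 saline and 4 PFSUV-IMQ tumors, 1 symbol per tumor, on a log axis of its own for each gene. Lines mark the mean of log2 CPM in a group. The groups are separate for Tnfsf10, Fas and Tnfrsf1a, with PFSUV-IMQ above, as for 6.00% of all tested genes. PFSUV-IMQ replicate 2 is the highest of its group for 7 of the 10 genes.

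Tnfsf10 (ENSMUSG00000039304, GRCm38 chromosome 3, 27317028 to 27342427, plus strand) encodes TRAIL, the ligand that binds Tnfrsf10b and can kill transformed cells. Its level was 9.12, 18.1, 23.4 and 4.40 CPM in saline replicates 1, 3, 4 and 5 and 71.8, 270.2, 69.2 and 95.5 CPM in PFSUV-IMQ replicates 1, 2, 3 and 4, from 81 to 544 and from 1241 to 3867 counts. The lowest PFSUV-IMQ tumor lay above the highest saline tumor, a separation found in that direction for 6.00% of tested genes. Replicate 2 was far above the other PFSUV-IMQ tumors, and without it Tnfsf10 was still called, with a log2 fold change of 2.50 (adjusted p = 0.0288), where 1.78% of genes were called higher. The call was lost without saline replicate 1 (adjusted p = 0.0983), saline replicate 3 (0.0779) or PFSUV-IMQ replicate 4 (0.0507), while the log2 fold change stayed between 2.50 and 3.58 over the 8 fits that each omitted 1 tumor. Under edgeR's glmTreat, which tests against a minimum log2 fold change of 1 and called 0.744% of genes higher, the call was lost as well (adjusted p = 0.110).

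Among saline tumors, Tnfsf10 and Fas had the same order as the hepatocyte markers, lowest in replicate 5 and highest in replicate 4. The mean log2 CPM of the 10 markers was 8.17, 9.09, 10.38 and 6.92 in saline replicates 1, 3, 4 and 5 and 7.85, 10.71, 8.67 and 8.70 in PFSUV-IMQ replicates 1, 2, 3 and 4, and none of the 10 markers was called (edgeR; 0 at an unadjusted p under 0.05, 0 by DESeq2 and 0 by the exact test). With this mean as a covariate, the log2 fold change of Tnfsf10 was 2.97 (adjusted p = 1.51e-05, with 3.43% of genes called higher), and with saline replicate 4 and PFSUV-IMQ replicate 2 both left out it was 2.87 (adjusted p = 0.0160, with 1.74% of genes called higher). Both fits were chosen after the data were seen. Replicate 2 also had the highest summed level of its group for T cell markers (191 CPM, against 73.2 to 167 CPM after saline), natural killer cell markers (101 CPM, against 17.8 to 52.2) and neutrophil markers (156 CPM, against 17.8 to 61.7). Of the T cell sum in replicate 2, Cd8a made up 53.6 CPM. Cd8a, Cd8b1, Cd3e, Cd4, Cd28 and Cd247 were there above all saline tumors. Cd3d, Cd3g and Trac lay within their saline ranges, and Cd5 (2.72 CPM) lay below its saline range. Of the natural killer cell sum in replicate 2, Klrk1 made up 57.2 CPM. Klrk1, Eomes (18.4 CPM) and Klre1 (8.52 CPM) were there above all saline tumors. Klrd1 (16.0 CPM), Ncr1 (0.768 CPM) and Klrb1c (0.140 CPM) lay within their saline ranges, and Klra8 had no counts. The part of these cells in the Tnfsf10 level was not tested.

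**Figure D2:**
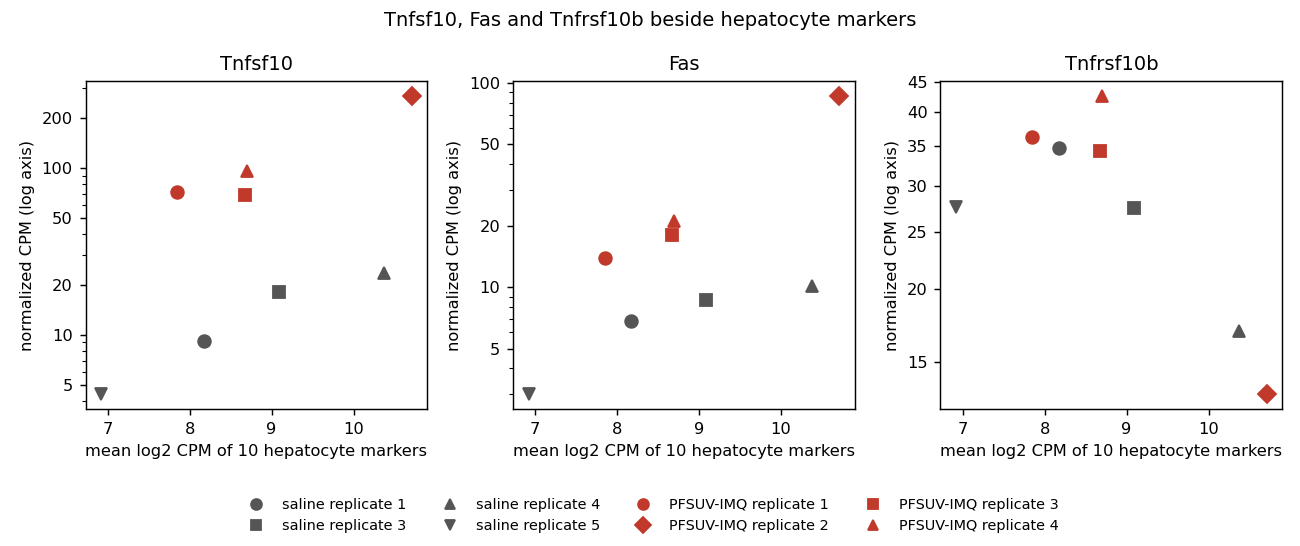
Normalized CPM (log axis) of Tnfsf10, Fas and Tnfrsf10b against the mean log2 CPM of 10 hepatocyte markers, 1 symbol per tumor. PFSUV-IMQ tumors lie above saline tumors of like marker level for Tnfsf10 and Fas, and for Tnfrsf10b the 2 tumors with the most hepatocyte markers are the lowest of their groups.

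Fasl (ENSMUSG00000000817, chromosome 1, 161780689 to 161788495, minus strand) encodes Fas ligand, which cytotoxic T cells and natural killer cells use to kill. Its level was 3.09, 4.46, 3.82 and 1.79 CPM in saline replicates 1, 3, 4 and 5 and 3.20, 6.29, 2.23 and 2.59 CPM in PFSUV-IMQ replicates 1, 2, 3 and 4. The groups overlapped, with a log2 fold change of 0.11 (SE 0.40, adjusted p = 0.955), and without PFSUV-IMQ replicate 2 it was -0.32. Fasl had 33 to 127 counts per tumor.

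Tnf, Lta and Ltb lie side by side on chromosome 17, with 1157 bases between Tnf and Lta and 3060 bases between Ltb and Tnf, and no exon base of any of the 10 genes is shared with another annotated gene. Tnf (ENSMUSG00000024401, 35199381 to 35202007, minus strand) encodes the inflammatory cytokine TNF. Its level was 2.12, 3.41, 3.91 and 2.71 CPM in saline replicates 1, 3, 4 and 5 and 2.43, 15.9, 3.46 and 5.02 CPM in PFSUV-IMQ replicates 1, 2, 3 and 4. The groups overlapped, and the difference lay mostly in PFSUV-IMQ replicate 2. Its log2 fold change of 1.13 (SE 0.55, adjusted p = 0.449) was 0.24 without that tumor. Lta (ENSMUSG00000024402, 35203165 to 35205351, minus strand), the gene of lymphotoxin alpha, ranged from 0.461 to 1.79 CPM after saline and from 1.12 to 2.24 CPM after PFSUV-IMQ, with 10 to 37 counts per tumor and a log2 fold change of 0.32 (SE 0.43, adjusted p = 0.844). Ltb (ENSMUSG00000024399, 35194439 to 35196320, plus strand), the gene of lymphotoxin beta, was at 7.10, 11.2, 11.1 and 11.6 CPM in saline replicates 1, 3, 4 and 5 and at 10.6, 21.1, 7.14 and 6.73 CPM in PFSUV-IMQ replicates 1, 2, 3 and 4. Its groups overlapped, with a log2 fold change of 0.15 (SE 0.37, adjusted p = 0.930) that was -0.35 without PFSUV-IMQ replicate 2.

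Fas (ENSMUSG00000024778, chromosome 19, 34290666 to 34327772, plus strand) encodes the death domain receptor of Fas ligand, which hepatocytes also carry. Its level was 6.87, 8.61, 10.1 and 2.99 CPM in saline replicates 1, 3, 4 and 5 and 13.8, 86.4, 18.1 and 21.1 CPM in PFSUV-IMQ replicates 1, 2, 3 and 4. Every PFSUV-IMQ tumor was above every saline tumor, as for 6.00% of tested genes, but replicate 2 was more than the other PFSUV-IMQ tumors together. The log2 fold change of 2.28 (SE 0.62) did not pass the adjustment (adjusted p = 0.110). Without PFSUV-IMQ replicate 2 it was 1.28 (adjusted p = 0.142). The call depended on the test, since the Wald test of DESeq2 called Fas higher (adjusted p = 0.00319), as it did 2.85% of the genes it tested, and edgeR's exact test did too (adjusted p = 0.00961), with 3.38% of genes. With the hepatocyte marker mean as a covariate the log2 fold change was 1.76 (adjusted p = 0.00168), and without both hepatocyte-rich tumors it was 1.49 (adjusted p = 0.110).

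Tnfrsf10b (ENSMUSG00000022074, chromosome 14, 69767472 to 69784411, plus strand) encodes the mouse TRAIL receptor with a death domain. Its level was 34.8, 27.4, 16.9 and 27.6 CPM in saline replicates 1, 3, 4 and 5 and 36.4, 13.2, 34.4 and 42.7 CPM in PFSUV-IMQ replicates 1, 2, 3 and 4. It was lowest in saline replicate 4 and PFSUV-IMQ replicate 2, the tumors with the most hepatocyte markers and the most Tnfsf10 of their groups. The groups overlapped, with a log2 fold change of 0.25 (SE 0.35, adjusted p = 0.849).

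Tnfrsf1a and Ltbr are neighbors on chromosome 6, 35476 bases apart. Tnfrsf1a (ENSMUSG00000030341, 125349362 to 125362484, plus strand) encodes the TNF receptor with a death domain, which most cell types carry. Its level was 80.0, 76.0, 90.3 and 90.8 CPM in saline replicates 1, 3, 4 and 5 and 135, 126, 99.7 and 94.4 CPM in PFSUV-IMQ replicates 1, 2, 3 and 4. The groups did not overlap, as for 6.00% of tested genes with PFSUV-IMQ above, although the gap between them was narrow. The log2 fold change of 0.43 (SE 0.17, adjusted p = 0.290) did not pass the test. Ltbr (ENSMUSG00000030339, 125306571 to 125313885, minus strand), the lymphotoxin beta receptor of stromal and epithelial cells, ranged from 45.0 to 63.7 CPM after saline and from 43.7 to 60.4 CPM after PFSUV-IMQ (log2 fold change -0.07, SE 0.18, adjusted p = 0.930). Tnfrsf1b (ENSMUSG00000028599, chromosome 4, 145213463 to 145246870, minus strand) encodes the TNF receptor without a death domain, found mostly on immune and endothelial cells. It was at 70.5, 67.4, 68.8 and 64.6 CPM in saline replicates 1, 3, 4 and 5 and at 107, 118, 67.3 and 71.0 CPM in PFSUV-IMQ replicates 1, 2, 3 and 4. Replicates 1 and 2 were above all saline tumors and replicates 3 and 4 lay near them, with a log2 fold change of 0.42 (SE 0.20, adjusted p = 0.438).

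**Figure D3:**
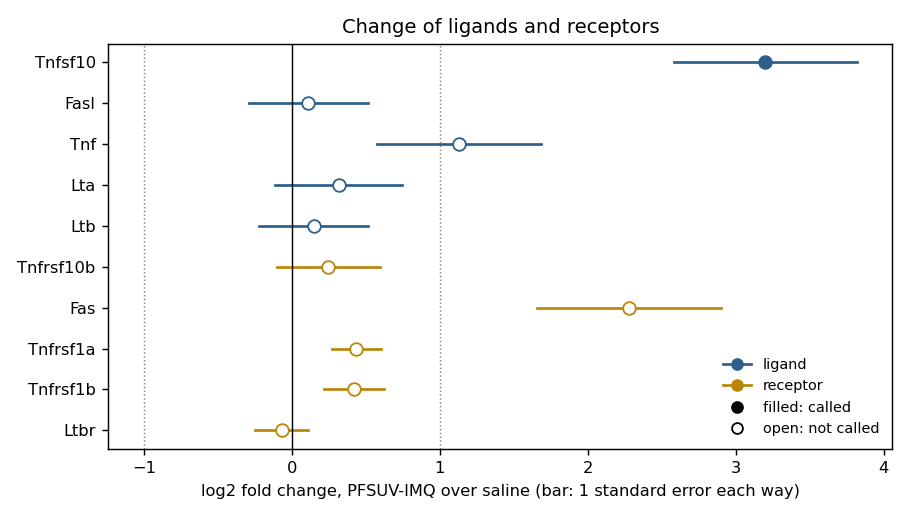
Log2 fold change of PFSUV-IMQ over saline for the 5 ligand genes (blue) and 5 receptor genes (gold), with bars of 1 standard error each way and dotted lines at -1 and 1. Tnfsf10 at 3.20 is the filled point, the only called gene, Fas at 2.28 and Tnf at 1.13 lie beyond 1 without a call, and the other 7 genes lie between -0.07 and 0.43.

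The ligands were then set against their receptors in each tumor, as the log2 CPM of the ligand minus that of the receptor, a description with no test. Tnfsf10 minus Tnfrsf10b was -1.92, -0.60, 0.46 and -2.62 in saline replicates 1, 3, 4 and 5 and 0.98, 4.34, 1.01 and 1.16 in PFSUV-IMQ replicates 1, 2, 3 and 4. The TRAIL gene was thus below its receptor gene in 3 of 4 saline tumors and above it in 4 of 4 PFSUV-IMQ tumors on the CPM scale, with means of -1.17 ± 1.37 and 1.87 ± 1.65 (SD, n = 4 each). Fasl minus Fas went the opposite way, at -1.13, -0.93, -1.38 and -0.71 in saline replicates 1, 3, 4 and 5 and -2.08, -3.76, -2.96 and -2.98 in PFSUV-IMQ replicates 1, 2, 3 and 4. Its means were -1.04 ± 0.29 and -2.94 ± 0.69, so that the receptor gene exceeded its ligand gene by more after PFSUV-IMQ in every tumor. The groups overlapped for the other 4 pairs, with a difference between group means of 0.34 for Tnf minus Tnfrsf1a, 0.39 for Tnf minus Tnfrsf1b, -0.0045 for Lta minus Tnfrsf1b and 0.08 for Ltb minus Ltbr.

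**Figure D4:**
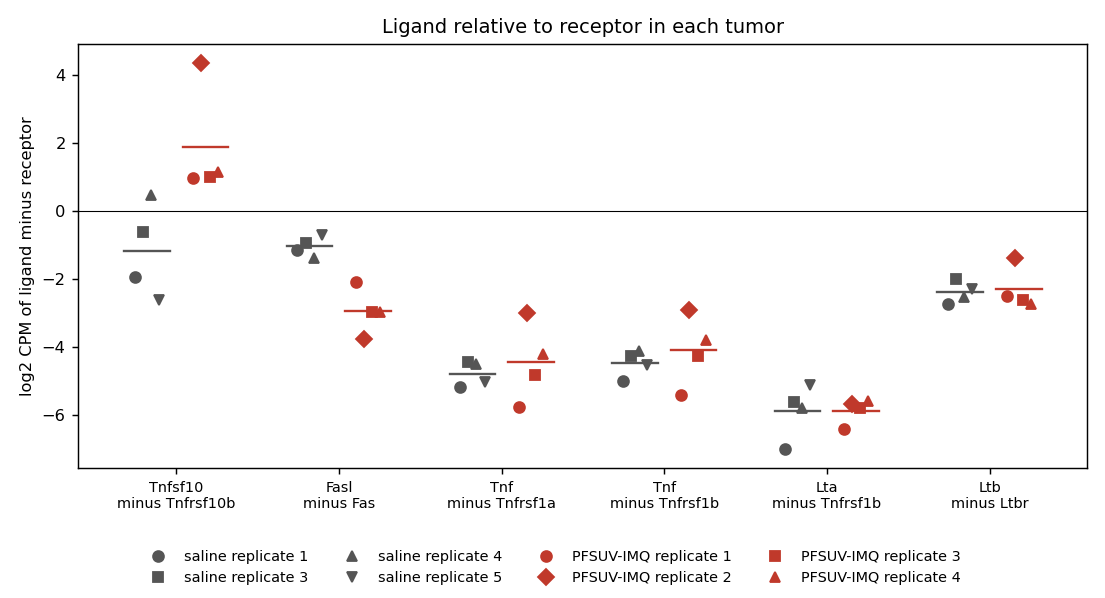
Log2 CPM of a ligand gene minus that of its receptor gene in each of the 8 tumors, for 6 pairs, with lines at the group means. PFSUV-IMQ tumors lie above saline tumors for Tnfsf10 minus Tnfrsf10b and below them for Fasl minus Fas, and the groups overlap for the other 4 pairs.

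Levels of different genes were compared per length, as RPKM, the normalized CPM per 1000 bases of annotated exon. After saline the receptor genes led, with Tnfrsf1a at 32.5 ± 2.88, Ltbr at 22.6 ± 3.73 and Tnfrsf1b at 17.8 ± 0.657 RPKM, each apart from its neighbors in the order over the 4 tumors. Ltb (6.77 ± 1.40), Tnfrsf10b (4.90 ± 1.35), Fas (3.47 ± 1.49), Tnfsf10 (2.61 ± 1.63), Tnf (1.85 ± 0.478), Fasl (1.70 ± 0.592) and Lta (0.852 ± 0.397 RPKM) followed, and each overlapped the next. After PFSUV-IMQ, Tnfrsf1a was again highest at 43.9 ± 7.69 RPKM. Tnfsf10 had the next mean at 24.1 ± 18.3 RPKM, beside Tnfrsf1b (23.8 ± 6.71), Ltbr (21.6 ± 3.42) and Fas (16.9 ± 16.7). That place rested on PFSUV-IMQ replicate 2, with 51.3 RPKM against 13.1 to 18.1 RPKM in replicates 1, 3 and 4. In each of replicates 1, 3 and 4, Tnfsf10 lay below both Tnfrsf1b and Ltbr. The Fas mean also rested on replicate 2, with 41.9 RPKM against 6.72 to 10.2 RPKM in replicates 1, 3 and 4. Ltb (7.51 ± 4.42), Tnfrsf10b (5.81 ± 2.35), Tnf (4.08 ± 3.79), Fasl (1.85 ± 0.955) and Lta (1.06 ± 0.377 RPKM) had lower means. Every gene overlapped the next in the order of means.

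Genes around the receptors were taken from 6 lists with 90 genes, of which 85 were tested, 5 were called higher and 0 lower (edgeR; 0 lower at an unadjusted p under 0.05 and 0 lower by DESeq2), where 2.26% of all tested genes were called higher and 0.200% lower. Under glmTreat, Daxx alone of the 5 kept its call (adjusted p = 0.00487), and with the hepatocyte marker covariate 1 gene, Tnfrsf13b, named after its values were seen, was called lower. In the apoptosis arm (adaptors, caspases and their regulators), 1 of 20 genes rose, and 7 were higher at an unadjusted p under 0.05, where 8.34% of all tested genes were. Daxx, named for binding the Fas death domain, was at 27.0 to 42.2 CPM after saline and at 198, 406, 213 and 195 CPM in PFSUV-IMQ replicates 1, 2, 3 and 4, a log2 fold change of 2.96 (SE 0.29, adjusted p = 0.000962), which kept its call whichever tumor was omitted. Every PFSUV-IMQ tumor was far above every saline tumor, and 5 other genes of the list also had separate groups with PFSUV-IMQ above, as 6.00% of all tested genes did. Of the genes that were not called, the smallest p belonged to 2 inhibitors. Bcl2l1, an inhibitor of mitochondrial apoptosis, had a log2 fold change of 0.77 (adjusted p = 0.0687). Cflar, the caspase-8 inhibitor FLIP, had 0.85 (adjusted p = 0.0839). Genes other than inhibitors were also higher at an unadjusted p under 0.05 without a call. They were Apaf1 (log2 fold change 0.57, adjusted p = 0.211), Bid (0.40, 0.265), Bak1 (0.47, 0.265) and Casp8 (0.59, 0.295). The median of the list was 0.23.

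In the NF-kappaB arm of TNF receptor signaling, 1 of 24 genes rose. Rnf31, the catalytic subunit of the linear ubiquitin ligase at the TNF receptor, went from 27.3 to 39.6 CPM after saline to 90.3, 126, 78.8 and 83.9 CPM in PFSUV-IMQ replicates 1, 2, 3 and 4, a log2 fold change of 1.60 (SE 0.20, adjusted p = 0.00327), a call kept whichever tumor was omitted but lost under glmTreat (adjusted p = 0.125). The count of the list was 0 under glmTreat and 2 under the exact test, which also called Tnfaip3. The feedback inhibitors of this pathway were not called, Tnfaip3 with a log2 fold change of 1.02 (adjusted p = 0.137) and Nfkbia with 1.01 (adjusted p = 0.155), although both were higher in all 4 PFSUV-IMQ tumors than in any saline tumor. The median of the list was 0.20, and 5 of its genes had separate groups, all with PFSUV-IMQ above, as 6.00% of all tested genes did.

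In the list for control of ligand release and mRNA, 2 of 10 genes rose. Zfp36, which binds and destabilizes Tnf mRNA, was at 56.5 to 84.4 CPM after saline and at 128 to 266 CPM after PFSUV-IMQ (log2 fold change 1.26, adjusted p = 0.0277). Rhbdf2, which brings the TNF-releasing protease Adam17 to the cell surface, was at 24.7 to 50.0 CPM after saline and at 65.8 to 97.2 CPM after PFSUV-IMQ (log2 fold change 1.23, adjusted p = 0.0309). Their groups did not overlap, as for 6.00% of tested genes with PFSUV-IMQ above, but both calls were fragile. That of Zfp36 was kept only without PFSUV-IMQ replicate 1 or 2 and lost without any other tumor (adjusted p over the 8 fits from 0.0191 to 0.0928), and that of Rhbdf2 was kept only without saline replicate 5 (0.00752 to 0.110). Without both hepatocyte-rich tumors Rhbdf2 was not called (adjusted p = 0.129), and under glmTreat neither gene was.

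None of the 4 decoy or soluble receptor genes was called (edgeR; 0 at an unadjusted p under 0.05 and 0 by DESeq2), with log2 fold changes of 0.32 for Tnfrsf26 (adjusted p = 0.594) and 0.44 for Tnfrsf11b (adjusted p = 0.669), which encodes osteoprotegerin, a soluble receptor that can bind TRAIL. Of 13 other ligand genes of the superfamily, 10 were tested and 0 called by edgeR, whereas DESeq2 called 2 and the exact test 2. At an unadjusted p under 0.05, 3 were higher, where 8.34% of all tested genes were. Tnfsf15, the gene of a ligand that costimulates T cells, had a log2 fold change of 1.91 (adjusted p = 0.0633). It was at 0.473 to 1.09 CPM after saline and 1.60 to 5.17 CPM after PFSUV-IMQ. Tnfsf8, the CD30 ligand gene, had a log2 fold change of 1.08 (adjusted p = 0.0696). Both depended on the processing, since Tnfsf15 was called higher under 4 of the alternatives given below and Tnfsf8 under 2. Of 19 other receptor genes, 17 were tested and 1 rose. Cd40, the receptor through which helper T cells license antigen-presenting cells, was at 4.19, 7.20, 5.41 and 6.57 CPM in saline replicates 1, 3, 4 and 5 and at 25.9, 82.9, 25.0 and 24.4 CPM in PFSUV-IMQ replicates 1, 2, 3 and 4. Its groups were far apart, with a log2 fold change of 2.75 (SE 0.44, adjusted p = 0.0110), and the call held without any single tumor, with adjusted p from 0.000938 to 0.0493. Without PFSUV-IMQ replicate 2 the log2 fold change of Cd40 was 2.08, and under glmTreat the call was lost (adjusted p = 0.0611). The receptor genes next in order of p were not called, Eda2r with a log2 fold change of 0.67 (adjusted p = 0.402) and Tnfrsf8 with 1.20 (adjusted p = 0.448).

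**Figure D5:**
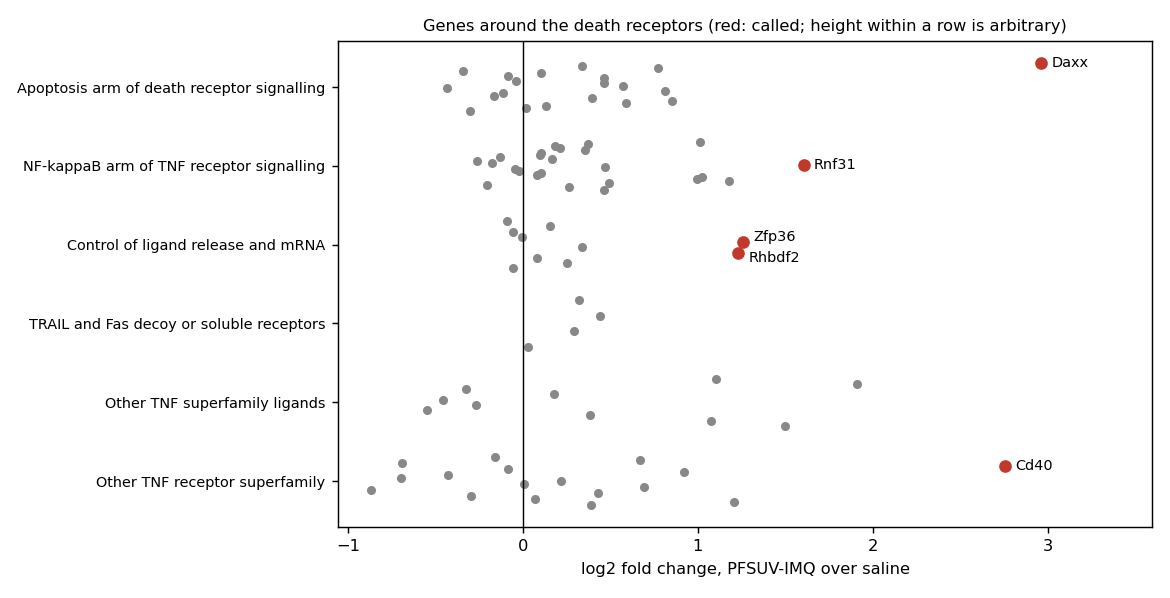
Log2 fold change of PFSUV-IMQ over saline for the 85 tested genes of 6 lists around the death receptors, 1 point per gene and 1 line of points per list, with the height inside a line arbitrary. The 5 called genes, in red, are Daxx, Rnf31, Zfp36, Rhbdf2 and Cd40, and all lie above 1.

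Markers of other cells were read beside these values. None of 65 tested markers in 9 lists was called (edgeR; 11 at an unadjusted p under 0.05, 2 by DESeq2, the T cell gene Cd5 and the dendritic cell gene Flt3, both lower, and 0 by the exact test). Neutrophil markers had a positive log2 fold change in 6 of 6 tested genes (median 1.16, 2 at an unadjusted p under 0.05). Dendritic cell markers had a negative one in 6 of 8 (median -0.56, 3 at an unadjusted p under 0.05). Macrophage markers had a negative one in 9 of 11 (median -0.21) and endothelial markers in 5 of 6 (median -0.40). The median over all tested genes was -0.03. At an unadjusted p under 0.05, the macrophage gene Cd14 was higher (log2 fold change 0.63, adjusted p = 0.104) and Clec4f lower (-0.96, adjusted p = 0.122). Of all tested genes, 8.34% were higher and 4.65% lower at an unadjusted p under 0.05. The part of the listed cell types in the ligand and receptor values was not tested. Macrophage markers summed to 1230 to 1762 CPM after saline and 961 to 1820 CPM after PFSUV-IMQ, T cell markers to 73.2 to 167 and 78.7 to 191 CPM, natural killer cell markers to 17.8 to 52.2 and 33.0 to 101 CPM, and dendritic cell markers to 84.3 to 117 and 69.9 to 105 CPM. Neutrophil markers summed to 17.8 to 61.7 and 34.5 to 156 CPM, B cell markers to 2.40 to 11.1 and 4.74 to 32.0 CPM, and endothelial markers to 112 to 187 and 92.6 to 146 CPM. The summed level of each list overlapped between the groups, as that of the hepatocyte list did, and Klra8 of the natural killer cell list was at or under 3 counts in every tumor. Of the 5 tested natural killer cell genes, 3 had a positive and 2 a negative log2 fold change, from -1.63 for Ncr1 to 1.16 for Klrk1.

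The genes whose pattern over the 8 tumors was most like that of 3 of the genes were found among all tested genes by the root mean square difference of log2 CPM, after each gene was centered on its own mean. For Tnfsf10, whose SD over the tumors was 1.95, they were Arhgef26 (0.361), Ifi209 (0.390) and Spats2l (0.394). For Fas, with an SD of 1.40, they were Clic5 (0.228), Gm2666 (0.243) and Itgb6 (0.250). For Tnf, with an SD of 0.89, they were Pycard (0.228), Wt1 (0.239) and 5430427O19Rik (0.249). All 9 were highest in PFSUV-IMQ replicate 2, as Tnfsf10, Fas and Tnf were. The 3 genes nearest to Tnfsf10 were each called higher, with log2 fold changes of 3.09, 3.92 and 2.56 (adjusted p = 0.0499, 0.00678 and 0.0231). Because the 9 genes were picked for likeness over these same tumors, both results follow largely from the choice.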

How the data were processed

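Total RNA of 8 tumors was prepared with an mRNA kit and sequenced. The authors deposited whole-number counts of reads per gene, which entered every test. Their second table holds signal values, which the authors made by dividing each tumor's counts by 1 size factor (largest relative departure 5.4e-10), and it was used for symbols. The study's methods name TopHat and HTSeq, whereas the submitters' processing notes name Trimmomatic 0.38, HISAT2 2.1.0 and featureCounts 2.0.0. Which of these made the counts, and whether they used strand, is not given in the sources used here. The identifiers are those of GENCODE M21 (GRCm38), from which coordinates and exon lengths were taken.

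The counts were tested in R 4.3.3 with edgeR 4.0.16 (TMM, default filter on low counts, quasi-likelihood test, Benjamini-Hochberg adjustment) on all 8 tumors with no covariate. DESeq2 1.42.0 was an alternative. The scripts were tested on simulated data. Log2 CPM used a prior count of 2. Tables and figures were made in Python 3.11.15 with pandas 2.3.3, numpy 2.4.6 and matplotlib 3.10.9. Promoter sequences are from RefSeq. The study's methods give younger mice than the labels, and the saline treatment and the dose come from those methods.

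The members, lists and tests were chosen with earlier results of these data known. Named genes are all 10 members, up to 4 called genes of each list (where fewer than 2 were called, also the 2 others with the smallest p) and the 3 genes most like Tnfsf10, Tnf and Fas. Tnfrsf22 and Tnfrsf23 were named outside this rule, for their level. Alternatives were other size factors, upper-quartile normalization, no filter, at least 10 counts in every tumor, edgeR's exact test and glmTreat, DESeq2, no limit on the fold change, the replicate number as a block, a prior count of 0.5 and each tumor left out. The hepatocyte marker covariate and leaving out both hepatocyte-rich tumors were added after seeing the data. The 4 tumors of a group are of different mice. Counts of tumors within a group differed by more than sampling noise (lowest chi-square per degree of freedom 29.0). No batch or date is given. Mitochondrial genes took 1.37 to 6.65% of counts.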

Additional observations from a re-analysis of the deposited data

Results flagged for a closer look

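In 50 groups of 4 tumors (25 genes, the 10 ligand and receptor genes and 15 named genes around them), 8 single values lay far from the rest of their group by Dixon's criterion. For independent groups of normally distributed values, chance alone would give this in about 1 of 20 groups. The 25 genes share the same 8 tumors, so the count of 8 cannot be judged against that rate. PFSUV-IMQ replicate 2 held 4 of the 8. There Tnfsf10 was at 270.2 CPM with the next tumor at 95.5 CPM, Fas at 86.4 CPM with the next at 21.1 CPM, Daxx at 406 CPM with the next at 213 CPM, and Cd40 at 82.9 CPM with the next at 25.9 CPM. In the saline group, Ltb was at 7.10 CPM in replicate 1 with the nearest tumor at 11.1 CPM. In saline replicate 5, Rnf31 was at 39.6 CPM (nearest 29.2 CPM) and Tnfrsf11b at 3.42 CPM (nearest 8.66 CPM). In PFSUV-IMQ replicate 4, Eda2r was at 36.9 CPM with the nearest tumor at 23.1 CPM.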

How the results depend on the processing

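Of all genes, 362 were called higher and 32 lower, and these counts moved to 119 and 1 with edgeR's glmTreat at a minimum log2 fold change of 1, to 617 and 129 with the Wald test of DESeq2 and to 548 and 258 with the hepatocyte marker covariate. Genes called lower were 63 with no filter on low counts and 92 with the exact test. With each tumor left out in turn, 197 to 375 genes were called higher and 8 to 38 lower. Of the 10 genes, 2 were called higher (Tnfsf10 and Fas, so that 1 receptor gene was called) with no filter, the exact test, DESeq2 and the covariate, and 0 with glmTreat, where the call of the 1 ligand gene was lost (adjusted p = 0.110). Leaving out each tumor in turn gave 0 to 1 of the 10 genes and 0 to 1 of the ligand genes called. The log2 fold change of Fasl was -0.041 with the covariate, -0.25 without both hepatocyte-rich tumors and from -0.32 to 0.29 with each tumor left out. That of Ltb was -0.0076, -0.31 and from -0.35 to 0.34. That of Ltbr reached 0.026 without saline replicate 4, within a range from -0.17. Those of the other 7 genes kept their sign under every alternative, and no call of the 10 genes changed under other size factors, upper-quartile normalization, the stricter filter or no limit on the fold change.

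The deviations of same-numbered tumors correlated at 0.29, -0.27 and -0.32, and those of tumors with different numbers at -0.64 to 0.68. These values show no pairing by replicate number, but 3 correlations within so wide a range cannot exclude one. A fit with the replicate number as a block compares only numbers 1, 3 and 4, so PFSUV-IMQ replicate 2 and saline replicate 5 add nothing to it. This block gave 416 genes higher and 267 lower, 2 of the 10 genes (1 ligand and 1 receptor) called higher, and log2 fold changes of 2.30 for Tnfsf10 (adjusted p = 0.00574), 1.05 for Fas (adjusted p = 0.0217), -0.50 for Fasl and -0.27 for Ltb. It also called 1 list gene, Tnfrsf13b, lower. Depth limits Lta, Fasl and Tnf most, which had 10 to 37, 33 to 127 and 44 to 227 counts per tumor.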
